A study of Helianthus annuus with 9 samples.

Results

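A group of 92 assembled long non-coding RNA (lncRNA) loci was high in sunflower seeds at day 7 and low in every later library. The loci were chosen by their measured level: at least 5 FPKM in each of the 3 day 7 libraries and under 1 FPKM in each of the 6 libraries of day 22 and day 37. FPKM, the fragments per kilobase of transcript and per 1000000 fragments of the library, is the length-scaled level that the authors deposited. The 92 loci were 0.159% of the 57962 assembled lncRNA loci listed in a table of 65535 lncRNA features. That table may be cut off, as set out below with the positions. Their names begin with LXLOC, which marks loci built from the reads themselves rather than taken from a gene annotation. Because the day 7 and later levels chose these loci, the differences between day 7 and the later days are given as a description and carry no test.

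The plants were Helianthus annuus line L-1-OL-1, a high oleic acid line grown in an experimental field with no treatment, and all 9 libraries came from seeds of that 1 line. The groups were seeds of day 7, day 22 and day 37, with 3 libraries each, made from total RNA after ribosomal RNA was removed. The labels do not name the event that starts the count of days. Nor do they tell whether libraries of 1 day were made from different plants. A p-value here reflects the scatter within days over all 9 libraries, moderated across features, and that scatter may be technical. In such bulk libraries, fewer cells of a type and less RNA per cell cannot be told apart.

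Long non-coding RNAs are transcripts without a recognised protein-coding frame. Some act in cis on neighbouring genes, some act on chromatin or on other RNAs, and for most plant lncRNAs no function is known. A young sunflower seed holds endosperm, seed coat and an early embryo, while a later seed is mostly embryo, whose cotyledons fill with oil and storage protein. No product names were at hand for the genes, so the labelled tissue was not checked against markers.

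The libraries differed in depth and in the level of weak signal. The low FPKM values of short single-exon loci fell on whole multiples of a fixed step, and the step gives the number of fragments to which each library was scaled. In units of 1000000 fragments this was 55.7 to 58.2 in day 7 libraries, 27.0 to 37.6 in day 22 libraries and 22.3 to 26.4 in day 37 libraries. The median FPKM of all assembled lncRNA loci was 0 in each day 7 library. It was 0.62, 0.89 and 1.21 in day 22 libraries 1 to 3, and 1.02, 1.10 and 1.54 in day 37 libraries 1 to 3. Libraries numbered 3 on both later days thus had the highest weak signal, and without them the same thresholds chose 94 loci in place of 92.

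The 92 loci ran against the other assembled loci. On day 7, 74.3% to 75.0% of all assembled lncRNA loci were listed at 0, against 1.4% to 1.85% in the 6 later libraries. All 92 were above 0 on day 7, by their choice. At 0 were 32, 40 and 48 of them in the day 22 libraries and 46, 45 and 59 in the day 37 libraries. The choice also held every later value under 1 FPKM, which favours a later 0, so this contrast comes partly from the choice. Summed over the 92 loci, the FPKM was 5827, 5264 and 5446 in the day 7 libraries. The sum was 17.2, 16.2 and 15.5 FPKM on day 22 and 12.3, 15.1 and 11.45 FPKM on day 37. The average of these sums was 5512 ± 288 FPKM at day 7. It was 16.3 ± 0.869 FPKM at day 22 and 12.95 ± 1.89 FPKM at day 37 (SD, n = 3 each). The 92 loci held 3.65% to 4.01% of the FPKM of the whole lncRNA table on day 7 and 0.00562% to 0.00800% in the later libraries. On the log2(FPKM + 1) scale the difference, day 22 minus day 7, had a median of −4.28 over the 92 loci and ranged from −9.04 to −1.90.

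**Figure D1:**
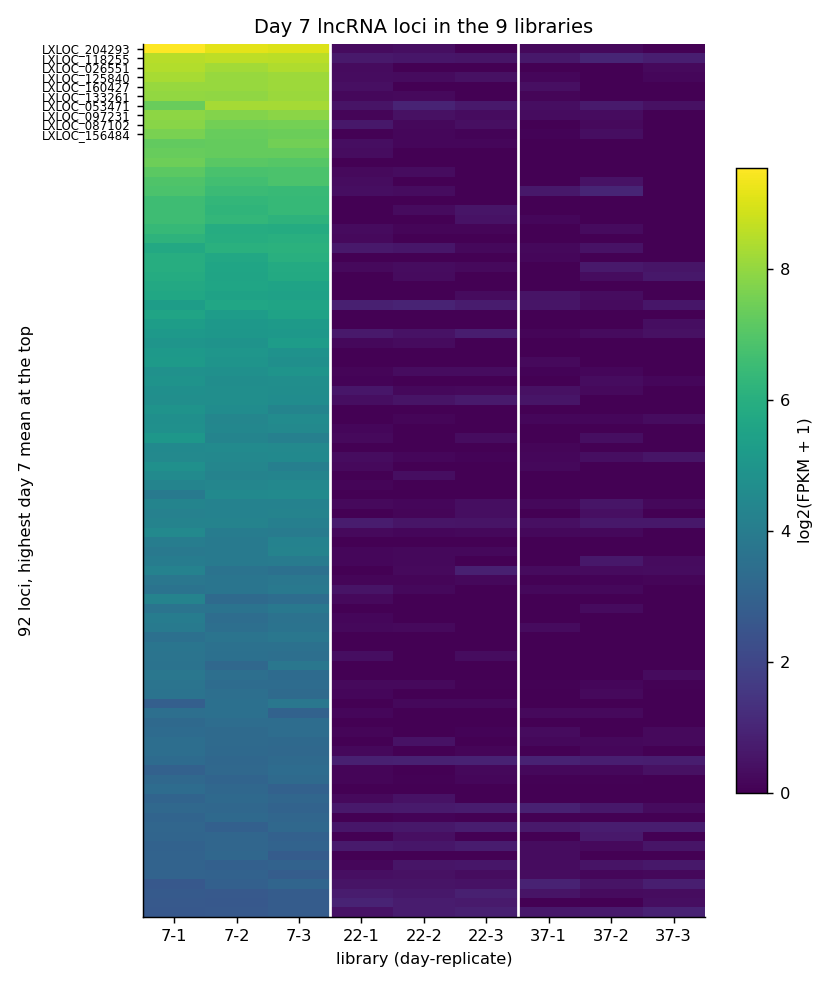
Level of the 92 loci (rows, highest day 7 mean at the top, the 10 highest named) in the 9 libraries (columns, day and replicate), coloured by log2(FPKM + 1). All rows are bright in the 3 day 7 columns and near 0 in the 6 later columns, by the way they were chosen, and a few rows keep a faint colour later.

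A high day 7 level with so low a later level was uncommon, and it made up a larger share of the assembled loci high on day 7 than of the annotated genes high on day 7, a difference that was not tested. Of the assembled lncRNA loci, 557 had at least 5 FPKM in all day 7 libraries, and the 92 were 16.5% of these. Of the other 465, many stayed on: 279 of the 557 had at least 1 FPKM in all later libraries and 128 had at least 5. The same thresholds were met by 88 of the 596 assembled mRNA loci that were high on day 7 (14.8%). They were met by 9 of 309 such annotated lncRNA genes (2.91%) and by 624 of 11359 such annotated mRNA genes (5.49%).

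**Figure D2:**
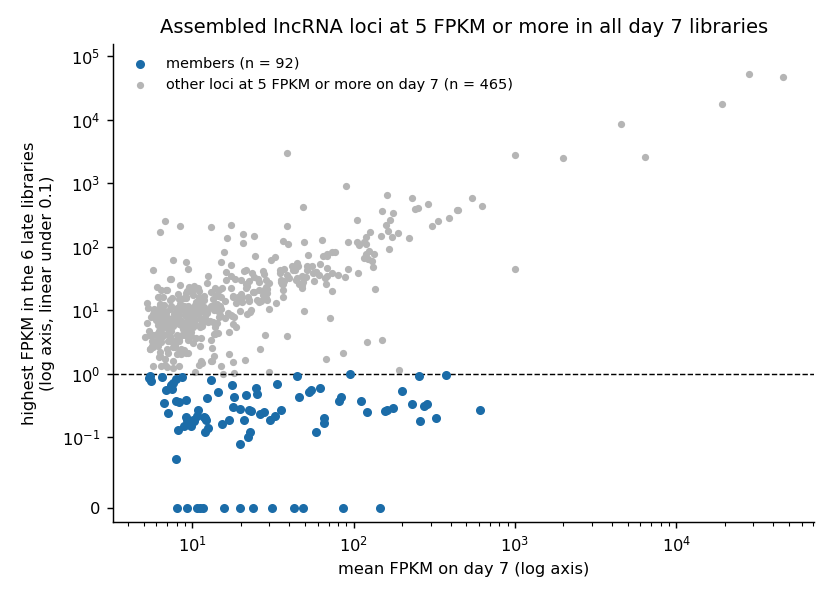
Highest FPKM in the 6 later libraries (log axis, linear under 0.1) against mean day 7 FPKM (log axis) for the 557 assembled lncRNA loci with at least 5 FPKM in all day 7 libraries. The 92 chosen loci lie under the dashed line at 1 FPKM and span the day 7 range up to 610 FPKM, while the other 465 loci lie on or above that line.

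The day 7 levels were spread over 2 orders of magnitude, and a few loci held most of the signal. The mean day 7 level ran up to 610 FPKM, with a median of 19.8 and a lowest value of 5.43. Means of 100 FPKM or more were found at 15 loci, 20 to 100 at 30 loci, 10 to 20 at 24 loci and under 10 at 23 loci. The 10 highest loci together held 54.2% of the summed day 7 FPKM. The sources used here give no role for any of the 10, whose names are only numbers of the assembly.

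The highest was LXLOC_204293, with 742, 560 and 527 FPKM in the day 7 libraries, 0.20, 0.27 and 0 on day 22 and 0.15, 0.15 and 0 on day 37. This locus alone made up 11.1% of the summed day 7 FPKM. LXLOC_118255 had 363, 379 and 378 FPKM in day 7 libraries, 0.56, 0.49 and 0.46 in day 22 libraries and 0.54, 0.97 and 0.72 in day 37 libraries. It was the only 1 of the 3 highest with a signal in all 6 later libraries. LXLOC_026551 had 346, 297 and 333 FPKM on day 7 and was listed at 0 in 4 later libraries, with 0.20 FPKM in day 22 library 1 and 0.17 in day 37 library 3.

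LXLOC_125840 stood at 311, 270 and 281 FPKM on day 7 and at 0.33 FPKM or less later. LXLOC_160427 stood at 270, 269 and 281 FPKM on day 7 and was above 0 in only 2 later libraries, the ones numbered 1 (0.31 and 0.30). LXLOC_133261 stood at 256, 245 and 274 FPKM on day 7 and at 0.18 or less later. The day 7 libraries differed little at these 3 loci. LXLOC_053471 was less even, with 164, 300 and 304 FPKM on day 7, and library 1 was the low one. It kept 0.40, 0.94 and 0.57 FPKM on day 22 and 0.29, 0.62 and 0.35 on day 37. LXLOC_097231, LXLOC_087102 and LXLOC_156484 followed with day 7 means of 231, 199 and 175 FPKM and later values of at most 0.34, 0.54 and 0.29 FPKM.

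Replicate spread on day 7 was small for most of the loci. The coefficient of variation over the 3 day 7 libraries had a median of 9.94%, against 7.25% at the other 465 loci high on day 7. It was under 10% at 46 loci and above 30% at 4, with a range of 0.908% to 42.2%. The most even was LXLOC_119381, with 158, 156 and 155 FPKM. Library 1 gave the highest value at 54 of the 92 loci (58.7%), library 2 at 9 and library 3 at 29. At the other 465 loci high on day 7, library 1 was highest at 45.2%. The sum over the 92 loci was likewise highest in library 1, and the part of that library in these levels was not tested.

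In the later libraries many values were 0 and few neared the threshold. Of their 552 later values, 270 were listed at 0 (48.9%) and 60, in 23 loci, were 0.5 FPKM or more. Listed at 0 in all 6 later libraries were 13 loci. The highest of these was LXLOC_158599, with 173, 136 and 130 FPKM on day 7. A signal in all 6 was found at 19 loci, and in exactly 1 library at 15 loci. The low later level of all 92 was set by the choice, and an absence of listed signal in all 6 later libraries was found at 13.

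At the thresholds the choice was close. LXLOC_120325 (5.36, 5.14 and 5.88 FPKM on day 7) and LXLOC_109121 (5.18, 5.29 and 5.83) were just inside. LXLOC_131641 (4.63, 4.97 and 5.36) and LXLOC_143792 (4.6, 5.34 and 8.12) were just outside. On the later side, LXLOC_006967 and LXLOC_118255 reached 0.98 and 0.97 FPKM in a later library and were inside, while LXLOC_208409 and LXLOC_080042 reached 1.01 and 1.04 and were outside. These 4 had day 7 minima of 85.0, 363, 14.2 and 17.1 FPKM.

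The step from day 22 to day 37 was not itself a criterion, although both days were held under 1 FPKM. Within that limit the mean was higher on day 37 at 29 loci, lower at 50 and equal at 13. The median change on the log2(FPKM + 1) scale was −0.03 over the 92, against 0.27 over all 34147 lncRNA features tested with limma. The call rule (adjusted p under 0.05 and a log2 change of at least 1) took 0.515% of all features as risen and 1.87% as fallen on day 37. On this scale values under 1 FPKM cannot differ by 1, so the rule could call none of the 92 and says nothing about them. With a pseudocount of 0.1 FPKM such a change was possible. Then 5 of the 92 were called as fallen and none as risen, where 2.78% of all features were called as fallen and 1.36% as risen. LXLOC_120325 had 0, 0 and 0.29 FPKM on day 37, against 0.94, 0.67 and 0.60 on day 22, a change of −2.39 ± 0.40 (SE) on the log2(FPKM + 0.1) scale with 0.000452 as the limma adjusted p. The other 4, named like it after their values were seen, were LXLOC_070833, LXLOC_087102, LXLOC_113408 and LXLOC_198493, with changes between −1.53 and −1.02. All 5 were under 1 FPKM on both days, where a few fragments make up a value. The 92 loci passed the filter of 1 FPKM in 3 libraries only through day 7. These calls are therefore given as a description and are no support for a change between the later days. With the pseudocount of 1, LXLOC_120325 changed by −0.67 ± 0.21 (SE), with 0.0541 as the limma adjusted p.

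Positions, exons and strand, matched by the number in the name, were known for 19 of the 92 loci. The assembly table used here covers 7 sequences and goes up to number 57346, while the 92 loci go up to 209971. The other 73 were not analysed for position. The assembly table has 65536 rows, and the lncRNA and mRNA tables list 65535 features each. Such like sizes may mean that the tables were cut off, so counts and shares hold for listed features only. The coordinates are the authors', and the genome build is not given in these sources. Of the 19, 6 lie on NC_035433.1, 5 on NC_035434.1, 6 on NC_035435.1 and 1 each on NC_035436.1 and NC_035437.1, and 13 are on the plus strand. All 19 carry the assembly class for intergenic loci, as do 64.6% of the 127 other loci high on day 7 in the table and 87.1% of all 15406 other assembled lncRNA loci. Introns were found in 11 of the 19 (57.9%). This is near the share among the other loci high on day 7, 72 of 127 (56.7%), while 712 of 15406 (4.62%) of all other loci had an intron. The loci were short: the median exonic length was 359 bases, against 1414 bases for the 127 and 871 bases for the 15406. Under 500 bases were 16 of the 19 (84.2%), against 23.6% and 17.2%. These shares are descriptions of the loci in the table and were not tested.

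**Figure D3:**
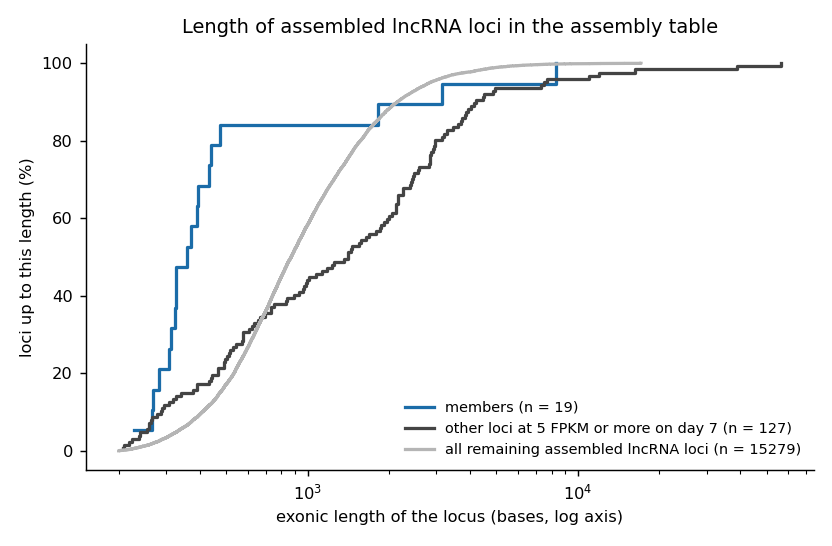
Cumulative share (%) of loci up to each exonic length (bases, log axis) for the 19 chosen loci with positions, the 127 other assembled lncRNA loci with at least 5 FPKM in all day 7 libraries, and the remaining assembled lncRNA loci in the assembly table. The curve of the 19 climbs to 84.2% before 500 bases, left of both other curves.

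The highest of the 19 were compact, apart from 1. LXLOC_026551 spans 104524964 to 104635760 on the plus strand of NC_035435.1 and has 2 assembled transcripts. One joins exons of 270 and 100 bases over an intron of 110427 bases, and the other is a single exon of 2886 bases. Read as the 370-base transcript, its later values of 0.20 and 0.17 FPKM are 1.96 and 0.985 fragments, close to whole numbers, and its day 7 values are 4302 to 5235 fragments. Read as the longer transcript the later values would be 20.9 and 10.5 fragments. At that length the rounding of the listed FPKM is too coarse to show whole numbers, so these values do not settle which transcript gave them. LXLOC_053471 is a single exon of 369 bases on the plus strand of NC_035437.1, from 171237844 to 171238212. LXLOC_006967 is a single exon of 394 bases on the minus strand of NC_035433.1, from 29932190 to 29932583, with 112, 89.4 and 85.0 FPKM on day 7.

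LXLOC_014595 lies on the plus strand of NC_035434.1 from 104999589 to 105000157 and has exons of 102 and 336 bases. It had 94.9, 78.2 and 83.3 FPKM on day 7 and 0 in all 6 later libraries. LXLOC_016521, on the plus strand of the same sequence from 157800001 to 157800663, has exons of 198 and 233 bases. It had 46.4, 38.0 and 44.6 FPKM on day 7 and was likewise at 0 later. LXLOC_021286 is on the minus strand of that sequence from 132532995 to 132535090, with exons of 153 and 128 bases, and had 38.7, 32.7 and 35.7 FPKM on day 7. Its only later value above 0 was 0.27 FPKM in day 37 library 3, equal to 1.03 fragments.

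LXLOC_029800 (NC_035435.1, minus strand, 18867108 to 18867447, exons of 136 and 131 bases) had 30.4, 28.9 and 37.9 FPKM on day 7. LXLOC_027657 (NC_035435.1, plus strand, 133153326 to 133153649, 1 exon) had 26.0, 24.9 and 24.9 FPKM. Both kept traces on day 22, of at most 0.22 and 0.48 FPKM. LXLOC_006008 (NC_035433.1, minus strand, 1754996 to 1755393, exons of 147 and 166 bases) had 29.2, 23.6 and 18.98 FPKM on day 7 and 0 later. LXLOC_005204 (NC_035433.1, plus strand, 139208743 to 139209174, exons of 149 and 157 bases) had 22.3, 22.8 and 21.6 FPKM on day 7 and a single later value of 0.10 FPKM. Apart from LXLOC_026551, each of these 10 loci has fewer than 500 exonic bases.

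Converted to fragments, the day 7 levels of these short loci rest on many reads and the later ones on very few. For a locus of 324 bases, 1 fragment was worth 0.0803 to 0.0839 FPKM on day 7, 0.124 to 0.173 FPKM on day 22 and 0.177 to 0.210 FPKM on day 37. Over the 17 loci with 1 transcript, the day 7 values were 51.3 to 4404 fragments, with a median of 267. Of their 102 later values, 65 were 0, and 33 of the 37 above 0 lay within 0.15 of a whole number of fragments. With the same tolerance, 14 of them were a single fragment and 15 were 3 fragments or more. The later fragments of a locus summed over 6 libraries had a median of 2.01, and 11 of the 17 loci had at most 3.15 in all. LXLOC_027657, of 324 bases, had 8.89 later fragments in all. A listed 0 in 1 library allows up to 3 fragments, which is 0.372 to 0.629 FPKM at 324 bases in the later libraries. Such a 0 taken alone thus leaves room for a level up to that. These limits cover counting error only.

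LXLOC_014595 shows the span: 1428 to 1812 fragments in the day 7 libraries and none in 6 later ones. LXLOC_012398, a single exon of 227 bases, was also at 0 later, but with only 57.6 to 63.4 fragments on day 7. LXLOC_009659 had the highest later signal in fragments, 7.71, 22.1 and 23.5 on day 22 and 10.8, 18.0 and 20.9 on day 37, against its 629 to 709 on day 7. At 1816 bases over 3 exons it is longer than the other single-transcript loci, and these fragments amount to less than 1 FPKM.

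**Figure D4:**
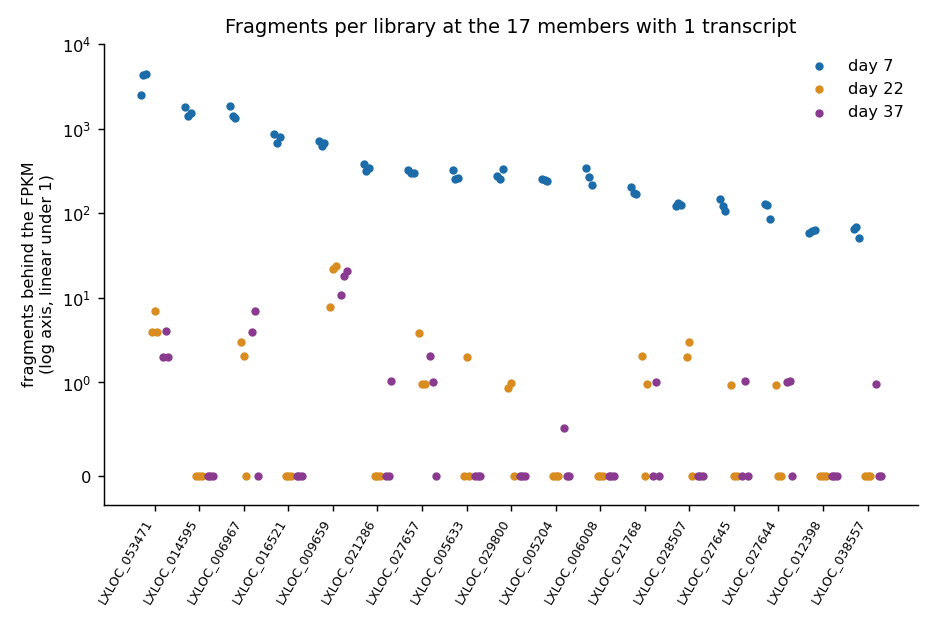
Fragments behind the FPKM in each library (log axis, linear under 1) for the 17 chosen loci with 1 assembled transcript, ordered by their day 7 level, with day 7 in blue, day 22 in orange and day 37 in purple. Day 7 points lie between 51.3 and 4404 fragments, and most later points lie at 0 or at 1 to 4 fragments, except at LXLOC_009659.

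Most of the 19 loci stood alone. Only 1 pair lay within 50 kb of each other: LXLOC_027644 (NC_035435.1, 132471270 to 132471595) and LXLOC_027645 (132474581 to 132474906), both on the plus strand and both single exons of 326 bases, 2986 bases apart. LXLOC_027644 had 10.3, 10.5 and 7.07 FPKM on day 7, and LXLOC_027645 had 11.6, 10.1 and 8.79. Each was above 0 in day 22 library 1 (0.12 FPKM) and in day 37 library 2 (0.19 FPKM). Their equal length leaves their separate values uncertain, since reads of near-identical copies can be split between loci and no sequence was at hand to compare them.

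Assembly numbers follow the start position along a strand in 38976 of 38978 steps in the assembly table. Whether this holds where no position is given could not be checked. Close numbers there may lie on different strands or sequences, and numbers give no distance. The run LXLOC_027644, LXLOC_027645 and LXLOC_027657 stretches from 132471270 to 133153649. Of the 92 loci, 22 (23.9%) had another of the 92 within 12 numbers, in 2 runs of 3 and 8 runs of 2. Of the other 465 loci high on day 7, 7 (1.51%) had one of the 92 within 12 numbers, and of all 57870 other assembled lncRNA loci 511 (0.883%) had one. These shares were not tested. How often the other 465 lie within 12 numbers of each other was not counted, so the shares do not show that runs are particular to the 92. The other run of 3 was LXLOC_076718, LXLOC_076722 and LXLOC_076723, with day 7 means of 14.5, 11.6 and 10.8 FPKM, of which the last 2 were at 0 in all later libraries. LXLOC_204293, the highest of all, shared a run with LXLOC_204284 (94.99, 79.3 and 70.0 FPKM on day 7). LXLOC_133261 shared one with LXLOC_133264 (14.3, 22.3 and 22.6), and LXLOC_209970 and LXLOC_209971 (day 7 means of 54.7 and 65.3) had consecutive numbers. These runs were named after their values were seen, and the gap of 12 was chosen for description. Of the 27 other features listed in or beside the runs, 22 were higher in the later libraries than on day 7. The same share over all features was not counted, so this count says nothing particular to the runs. Of all assembled lncRNA loci, 74.3% to 75.0% were at 0 on day 7 and 1.4% to 1.85% in the later libraries.

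The lncRNA loci around the 19 were mostly low on day 7 and higher on the later days. Of 48 other assembled lncRNA loci within 50 kb, 43 were under 1 FPKM in all day 7 libraries (96.2% of all assembled lncRNA loci were so), and 32 were at 0 in all 3. Their median mean level was 0 FPKM at day 7, 0.908 FPKM at day 22 and 1.08 FPKM at day 37. On both later days 44 of the 48 were higher than on day 7, a share that was not counted over all assembled lncRNA loci. The span of LXLOC_026551 itself holds other such loci inside its long intron. An exception, named after its values were seen, was LXLOC_053470, 9361 bases from LXLOC_053471 on the same strand. It had 118, 119 and 128 FPKM in day 7 libraries, 3.23, 2.10 and 2.34 in day 22 libraries and 1.30, 1.19 and 1.26 in day 37 libraries. It too was high on day 7 and low later, but above the later threshold.

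**Figure D5:**
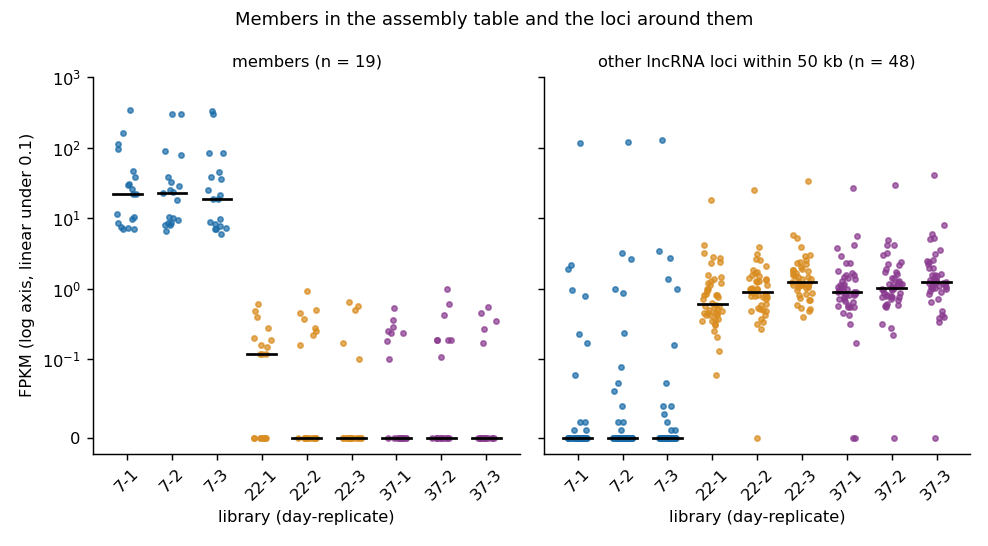
FPKM (log axis, linear under 0.1) in each library (day and replicate) for the 19 chosen loci with positions (left) and the 48 other assembled lncRNA loci within 50 kb of them (right), with 1 point per locus and a bar at the median. The left medians lie near 20 FPKM on day 7 and near 0 later, and the right medians lie at 0 on day 7 and near 1 FPKM later.

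The mRNA table was not used to choose the loci, so genes near them could be tested. Within 50 kb of 10 of the 19 loci lay 16 features of that table, 7 annotated genes and 9 assembled mRNA loci (MXLOC names), and 11 of the 16 passed the filter of 1 FPKM in 3 libraries. For the annotated genes the distance is to the assembled locus that the authors tie to the gene. An annotated gene with no such assembled locus could not be found, so nearer genes may be missing. Their products are not named in the tables used here. Against day 7, 7 of the 11 rose at day 22, where 34.1% of all mRNA features tested were called as risen, and 2 fell, where 24.9% were called as fallen. At day 37 against day 7, 7 rose and 3 fell (39.4% and 38.8% of all features). At day 37 against day 22 none rose (0.843% of all features) and 1 fell (16.6%). A fit that blocked on the replicate number gave 1 rise and 1 fall. The filter bears on these counts. All 7 features that rose against day 7 reached 1 FPKM only in later libraries, 1 that fell reached it only on day 7, and 3 of the 11 reached it on both sides, so the counts are no support for a direction near the loci. The 2 comparisons against day 7 share the day 7 libraries. The split of the calls over all mRNA features moved with the scaling. At day 22, rises made up 57.8% of the calls on the deposited values, 69.7% after median-of-ratios scaling and 47.1% after quantile normalization. In the same order they made up 4.83%, 36.8% and 27.6% for day 37 against day 22, and 50.4%, 71.2% and 47.6% for day 37 against day 7.

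The genes found near the highest of the 19 moved in different directions. All log2 changes are on the log2(FPKM + 1) scale, which understates the change of low genes. Near LXLOC_016521, LOC110925728 had 0.63, 0.54 and 0.53 FPKM on day 22, against 4.85, 4.92 and 4.65 on day 7. The log2 change was −1.89 ± 0.17 (SE), and the limma adjusted p was 5.26e-07. The gene passed the filter only through the day 7 libraries. Without the filter the adjusted p of the same change was 3.02e-06. On day 37 the gene stood at 0.53, 0.86 and 0.29 FPKM, and neither later day overlapped day 7. An assembled locus antisense to this gene lies 13314 bases from LXLOC_016521. The sources used here do not say whether counting used strand, so reads of the gene and of its antisense partner cannot be told apart. The same limit holds for LOC110880338, LOC110922243 and LOC110875230, named below, which are also tied to antisense loci. The annotated lncRNA LOC110925752, tied to a locus 4578 bases away on the same strand, had 1.92, 1.54 and 1.62 FPKM on day 7 and 0.78 or less later.

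Near LXLOC_005204, MXLOC_005205 also fell, with 42.7, 23.9 and 2.79 FPKM on day 22, against 89.6, 64.2 and 57.3 on day 7. It lies 7129 bases away on the same strand, and its log2 change was −2.13 ± 0.79 (SE), with 0.0257 as the limma adjusted p. Day 22 library 3 was far below the other two, and without that library the change was −1.09 and was no longer called. Nor was it called without day 7 library 1 (−1.94) or without day 37 library 3 (−2.13), or with either scaling (−1.45 with median-of-ratios, −1.24 with quantile normalization). The annotated lncRNA LOC110880378 is tied to the same assembled locus, and reads may be shared between them. Another 3 features near LXLOC_005204 went the other way, and all 3 passed the filter only through the later libraries, where they were high. MXLOC_005200 had 10.8, 11.1 and 5.78 FPKM on day 22, against 0, 0.01 and 0.04 on day 7 (log2 change 3.28 ± 0.51, limma adjusted p 5.98e-05). LOC110880338 and LOC110880330, both listed at 0 in all day 7 libraries, had 2.64 to 6.93 and 2.12 to 6.67 FPKM on day 22. Their log2 changes were 2.58 ± 0.52 and 2.46 ± 0.37. LOC110880338 reached 26.1, 18.3 and 3.63 FPKM on day 37, against its day 22 level a step of 1.17 on the log2 scale (limma adjusted p 0.110) that was not called. The step was called in the fit that blocked on the replicate number (adjusted p 0.0178), and with median-of-ratios scaling (1.98) and quantile normalization (1.79). Library 3 was the lowest on both days. The step was also called without day 37 library 3 (1.93) and without both later libraries numbered 3 (1.58), while without day 37 library 1 it was 0.66. MXLOC_005200 and LOC110880330 are tied to the same assembled locus, so that their reads may be shared.

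The remaining rises were at weakly read assembled mRNA loci, which also passed the filter only through the later libraries. MXLOC_018180, 16456 bases from LXLOC_012398 on the opposite strand, had 3.10, 5.12 and 5.26 FPKM on day 22, against 0.14, 0.10 and 0.14 on day 7 (log2 change 2.26 ± 0.23). MXLOC_015521, 18877 bases from LXLOC_021286, had 1.36, 2.5 and 3.01 FPKM on day 22, against 0.04, 0.02 and 0.03 on day 7 (1.64 ± 0.22), a rise that was not called with quantile normalization (0.82). In both, library 3 was the highest on both later days, as in the weak signal of the assembled lncRNA loci, and the part of that signal in these rises was not tested. MXLOC_000960 near LXLOC_006967 rose by 1.08 ± 0.20 on the log2 scale, and without the day 22 library 3 it was not called (0.92). Nor was it called with median-of-ratios scaling (1.05) or quantile normalization (0.31). MXLOC_014592 near LXLOC_014595 reached at most 1.08 FPKM and was not tested.

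Farther from LXLOC_021286, LOC110922243 was not called at day 22, with 7.59, 4.43 and 3.81 FPKM on day 22, against 7.30, 6.28 and 5.90 on day 7 (log2 change −0.30 ± 0.24). On day 37 it fell to 0.53, 0.51 and 0.45 FPKM. The log2 change of this last step was −2.02 ± 0.24 (SE), and its limma adjusted p was 3.53e-05. The lncRNA locus was already near 0 on day 22. The gene was named here after its values were seen. LOC110875230 near LXLOC_003909 was not called in any comparison, with 2.19 to 2.75 FPKM at day 7, 2.74 to 4.51 FPKM at day 22 and 1.52 to 3.56 FPKM at day 37. LOC110941832 and MXLOC_000072 near LXLOC_006008 stayed too low to be tested.

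The numbers of 2 of the 92 loci were also listed in the mRNA table, which gives a second value at the same assembled locus if equal numbers mark the same locus. MXLOC_003909 had 1.88, 2.29 and 2.80 FPKM on day 22, against 0.62, 0.51 and 0.48 on day 7 (log2 change 1.10 ± 0.18, limma adjusted p 7.86e-05), while LXLOC_003909 was under 1 FPKM later, by its choice. MXLOC_003909 passed the filter only through the later libraries. With quantile normalization its change was 0.54 and was not called. This locus has 6 assembled transcripts of up to 5 exons, from 112297400 to 112307787 on the plus strand of NC_035433.1. MXLOC_026551 stood at 0 in the 3 day 7 libraries and between 0.69 and 1.6 FPKM later. At both, the deposited mRNA values were higher on the later days than on day 7. The sources used here do not say how the authors split transcripts between the tables.

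Circular RNAs, which arise by back-splicing of exons, gave no further readout at these loci. Of 3482 circular RNAs listed, 1093 lie on the 7 sequences of the assembly table. None lay within the span of the 19 loci or within 5 kb of them, and 5 lay within 50 kb, near 3 of the 19.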

How the data were processed

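Seeds of 3 time points, with 3 libraries each, were analysed from the authors' deposited tables of FPKM for 65535 lncRNA and 65535 mRNA features, an assembly table of exon positions and a list of circular RNAs. Per the submitters' processing notes, the tools included DESeq2 1.4.5, RSEM 1.2.12, HISAT2 2.0.4 and Bowtie2 2.2.5. Their roles and the genome build are not given in the sources used here. The assembly table's exon coordinates are used as deposited by the authors. The circular RNA list holds the authors' deposited signal per library, used here only through its positions. The loci and lists were chosen with earlier results of these data known.

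Levels were tested on log2(FPKM + 1) with limma 3.58.1 in R 4.3.3 (trended, robust), in a single fit of the 9 libraries. A feature had to reach 1 FPKM in 3 or more of them. Calls needed a Benjamini-Hochberg adjusted p under 0.05 over all features and a log2 change of at least 1. The test was tried on simulated data. FPKM are not counts, so no count test was run. Loci with names LXLOC were matched to the assembly table by number. The step of 1 fragment was read from 6259 single-exon loci of 300 to 800 bases, with 110 bases taken off the length. Within 0.15 of a whole number of fragments lay 90.4% to 97.1% of the low values, against 30% if spread evenly. Depth is known only through this step.

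Named are the 10 loci highest on day 7, the 10 highest with positions and the nearest genes that could be found. Also named are loci at the thresholds and pairs within 50 kb. Of called genes within 50 kb, the 5 largest falls and rises at day 22 are named. The labels number the libraries without pairing them. Deviations of equally numbered libraries of day 22 and day 37 correlated at 0.149 to 0.781 in the mRNA table, so a fit with the replicate number as a block is given where it changes a call. Of the unequally numbered pairs, day 22 library 1 and day 37 library 2 correlated at 0.528, and the others at −0.778 to 0.0505. These values alone do not show a pairing by number. Symbols of the 7 annotated mRNA genes come from the RefSeq gene table. No genome sequence was used.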

Additional observations from a re-analysis of the deposited data

How the results depend on the processing

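The count of 92 loci stayed within 1.5 times under every threshold, scaling and left-out library tried, from 63 (day 7 minimum of 10 FPKM) to 138 (day 7 minimum of 2 FPKM). For day 37 against day 22 the pseudocount of 0.1 called 5 of the 92 as fallen. At a pseudocount of 1 their values under 1 FPKM cannot reach the log2 change asked for, so 0 calls there say nothing of stability. No change of a named gene that was called turned its sign, and over the tested genes near the loci 463 alternative values stayed on their side of the thresholds, called or not called, 15 lost a call and 9 gained one. Leaving out both later libraries numbered 3 was chosen after seeing the data. The cause of the moves below was not tested, except that leaving out a day 7 library takes LOC110925728 out of the test, since it passed the filter by the 3 day 7 libraries.

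Over all lncRNA features, falls for day 37 against day 22 numbered 637, against 306 with median-of-ratios scaling, 299 with quantile normalization and 387 to 851 with 1 library left out. Rises numbered 176, against 466 with the pseudocount of 0.1, 38 and 58 with the scalings and 139 to 382 with 1 library left out. Over all mRNA features, falls at day 22 were 9074, against 4307 with median-of-ratios scaling, and rises 12407, against 5851 with quantile normalization. For day 37 against day 22, falls were 6054, against 3832 with median-of-ratios scaling and 4016 to 7764 with 1 library left out. Rises were 307, against 575 with the pseudocount of 0.1, 2231 with median-of-ratios scaling, 1945 with quantile normalization, 885 without both later libraries numbered 3 and 148 to 1285 with 1 library left out. Falls for day 37 against day 7 were 14123, against 6804 with median-of-ratios scaling.

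Among the 11 features near the loci, falls at day 22 numbered 2, against 1 with either scaling and without both libraries numbered 3, and 0 to 2 with 1 library left out. Rises numbered 7, against 4 with quantile normalization. For day 37 against day 22, falls numbered 1, against 2 without both libraries numbered 3 and 1 to 2 with 1 library left out. Rises numbered 0, against 2 with median-of-ratios scaling, 1 with quantile normalization, 1 without both libraries numbered 3 and 0 to 1 with 1 library left out. Falls for day 37 against day 7 numbered 3, against 1 with median-of-ratios scaling. The replicate block gave 1 rise in place of 0 for day 37 against day 22 and moved no other count by over 1.5 times. Equally numbered libraries of day 7 and a later day correlated at −0.0629 to 0.0641, which gave no sign of a pairing. With 3 libraries per day, this cannot settle whether equal numbers share a plant. Scaling shifted the median log2 change of all mRNA features at day 22 from 0.09 to 0.53 (median-of-ratios) and 0.02 (quantile), and that of lncRNA features from 1.11 to 0.56 and −0.02. A window of 10 kb held 3 mRNA features in place of 16. The limits are 3 libraries per day, later libraries of lower depth, tables that may be cut off and positions for only 19 loci. Nor was there a sequence to tell near-identical loci apart.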
